A study of Mus musculus with 4 samples.

Results

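The PD-1 ligand gene Pdcd1lg2 was more accessible in adipocytes of every treated group than in adipocytes of untreated mice, and it was grouped here with 8 genes of the same receptor and ligand families: Cd274, Pdcd1, Cd80, Cd86, Cd28, Ctla4, Icos and Icosl. These 9 genes stand among 21897 protein-coding genes of the annotation, 17149 of which hold at least 1 peak. Pdcd1lg2 was chosen by its gene CPM in adipocytes of treated against day 0 mice, so those values are given as a description and were not tested. The other 8 were taken for their roles. A gene's value is the sum over peaks lying on its body or within 2 kb upstream of its start (mm10), of which there were 22 peaks for Pdcd1lg2, 14 for Cd274, 13 for Cd86, 9 each for Cd80, Cd28 and Ctla4, 6 for Icosl and 3 each for Pdcd1 and Icos.

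The study profiled nuclei of whole inguinal white adipose tissue (iWAT), the subcutaneous depot in which thermogenic beige adipocytes form, by single-nucleus ATAC-seq, which marks open chromatin by insertion of adapters with the Tn5 transposase. All mice were 8-week-old C57BL/6J males. The day0RT mice were kept at room temperature (22 °C). The day1C, day3C and day7C mice were exposed to cold (6.5 °C in the sample labels) for 1, 3 or 7 days, and the day1CL, day3CL and day7CL mice received CL-316,243 (CL), an agonist of the beta3-adrenergic receptor, at 1 mg/kg for 1, 3 or 7 days. Each of the 7 groups held 3 mice.

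PD-1, the product of Pdcd1, is an inhibitory receptor of activated T cells. Its ligands are PD-L1, encoded by Cd274 and made by many cell types, and PD-L2, encoded by Pdcd1lg2 and best known from dendritic cells, macrophages and some B cells. CD80 and CD86 on antigen-presenting cells engage either CD28, which costimulates T cells, or CTLA-4, which inhibits them, and ICOS ligand engages the costimulatory receptor ICOS. Open chromatin at a gene is not a measure of its RNA or protein.

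The deposited matrix held 189598 peaks in 32552 nuclei of 12 annotated clusters, with entries of 1 where a nucleus had reads in a peak. An entry summed over nuclei is called a count, and gene values are CPM, that is, counts on the gene per 1000000 gene counts of the library, a library being the nuclei of 1 mouse and cluster. A mouse gave 1111 to 2021 nuclei and 1340376 to 6916698 counts. White and beige adipocytes together were 7004 nuclei, 29 to 933 per mouse. Adipoq, Lep, Pparg and Plin1 were most open in both adipocyte clusters and Ucp1 in the beige cluster (55.1 CPM against 9.99 in the next cluster), as their labels say. Other labels were less well matched: Acta2, a smooth muscle gene, was lowest in the cluster labelled VSMC (7.76 CPM), where the muscle gene Myod1 was highest (83.6 CPM). Acta2 (107 CPM), Myh11 (223 CPM) and Tagln (80 CPM), all smooth muscle genes, were highest in APC2, and the endothelial gene Cdh5 was highest in macrophages (108 CPM) although Kdr and Pecam1 were highest in VEC. Macrophages and dendritic cells were separated by some markers only. Csf1r (197 CPM, against 77.3 in dendritic cells) and Mrc1 (113) were highest in macrophages. Flt3 was highest in dendritic cells (474, against 231 in macrophages). Adgre1, a macrophage gene, was higher in dendritic cells (57.2 CPM) than in macrophages (35 CPM). Itgax (67.7 and 64.3) and Xcr1 (45.9 and 44.6) were close in dendritic cells and macrophages, and Zbtb46 was highest in the VSMC cluster (176).

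Pdcd1lg2 (ENSMUSG00000016498, chr19:29410919-29471161, plus strand) lay at 36.9, 35.3 and 31.3 CPM in white plus beige adipocytes of the 3 day0RT mice. In cold the values were 78.5, 67.2 and 67.2 CPM in the day1C mice, 65.6, 58.1 and 78.5 in the day3C mice, and 80.5, 72.2 and 64.5 in the day7C mice. With CL they were 61.6, 78.9 and 70.3 CPM in the day1CL mice, 61.5, 76.2 and 68.6 in the day3CL mice, and 90.7, 89.8 and 91.7 in the day7CL mice. All 18 treated mice lay above all 3 day0RT mice. The group means were 34.5 ± 2.89 CPM (SD, n = 3) at day 0, between 67.4 and 72.4 CPM in 5 treated groups, and 90.7 ± 0.997 (SD, n = 3) at day7CL. The values rest on 55 counts at day 0 and 1570 in treated mice, and the day1CL mouse at 61.6 CPM had only 29 adipocyte nuclei and 3 counts.

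The fitted log2 fold changes against day 0, by edgeR over all groups, were 1.10 (SE 0.22) for day1C, 0.99 (SE 0.19) for day3C and 1.08 (SE 0.20) for day7C. They were 1.06 (SE 0.23) for day1CL, 1.11 (SE 0.19) for day3CL and 1.43 (SE 0.18) for day7CL. The mean over the treated groups was 1.13 (SE 0.17), which ranked 70 among 14387 tested genes whose median was -0.01. Of the same genes 101, or 0.702%, had all 18 treated mice above all 3 day 0 mice, and 9 of these had a log2 fold change over 0.9 in every treated group, which is the pattern that Pdcd1lg2 was picked for. The 6 contrasts share their day0RT mice and are not separate observations.

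**Figure D1:**
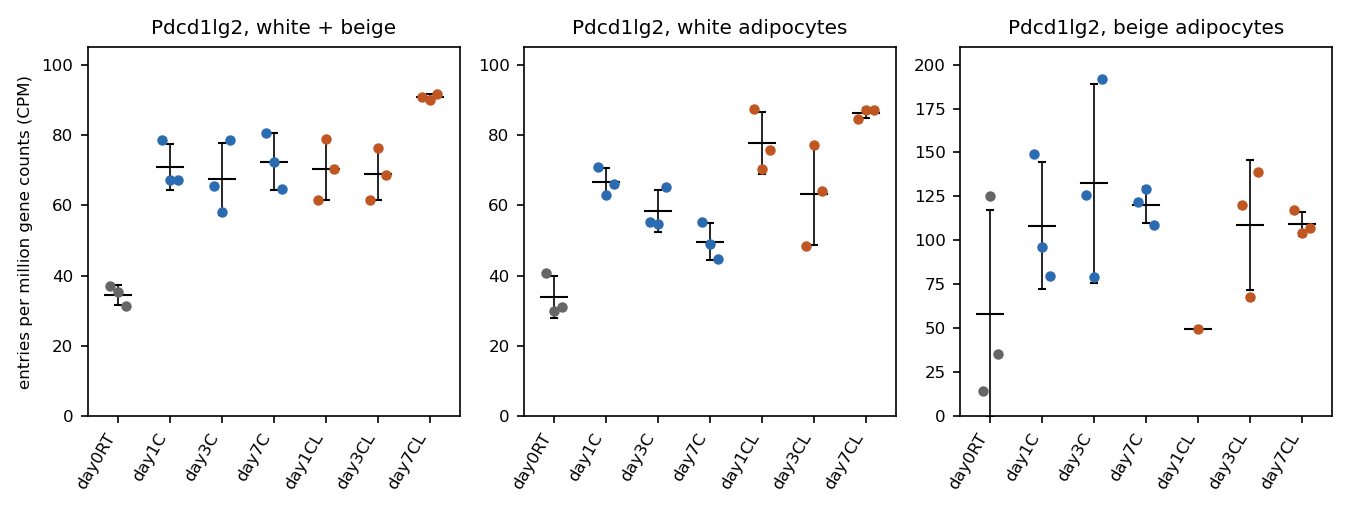
Pdcd1lg2 accessibility per mouse in white plus beige, white and beige adipocytes (y axis, CPM of gene counts, with a wider scale for beige; x axis, group); points are mice with at least 10 nuclei, lines the group mean and bars the SD. In white plus beige nuclei every treated mouse lies above the day0RT mice, and in white nuclei the 3 day7CL mice (84.5 to 87.0) lie above the 3 day7C mice (44.8 to 55.2).

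When white adipocytes were taken alone, the gene was more open in treated mice. White nuclei are 5935 of the 7004 adipocyte nuclei in which the gene was chosen, so this is a description and no separate support. White nuclei of the day0RT mice had 40.7, 29.9 and 31.0 CPM. The day7C mice had 55.2, 48.9 and 44.8 CPM, and the day7CL mice 84.5, 87.0 and 87.0. The 3 groups did not overlap, and the share of all genes so separated in white nuclei was not counted. In white plus beige nuclei, all day7C mice lay above all day 0 mice for 12.3% of genes, and all day7CL mice for 11.7%. The means of the other treated groups were 66.5 CPM (day1C), 58.3 (day3C), 77.7 (day1CL) and 63.1 (day3CL), against 33.9 ± 5.96 (SD, n = 3) at day 0. Beige nuclei had few counts at day 0, 5 over 58 nuclei. The day0RT mice were at 14.3, 125 and 35.4 CPM in beige nuclei (58.1 ± 58.7, SD, n = 3), a range that overlapped all 6 treated groups. Pooled over mice, beige nuclei had 35.1 CPM at day 0, 117 to 129 in the cold groups and 53.4 to 113 in the CL groups. Within mice, Pdcd1lg2 was higher in beige than in white nuclei in 16 of 19 mice (103 ± 41.9 against 60.5 ± 17.4 CPM, SD). This comparison of clusters is a description, since the clusters were made from the same nuclei, and the share of all genes with such a count was not computed. Beige nuclei were 9.11% of adipocyte nuclei at day 0, 29.3% at day7C and 20.5% at day7CL, so sums of white plus beige nuclei move with that share.

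Cold and CL were then compared on the same day, a comparison that does not use the day 0 mice. In white plus beige adipocytes none of 18 tests of 6 members (3 days) passed an adjusted p of 0.05 in edgeR, beside 0.827% of such tests over all genes (0.911% at day 1, 1.46% at day 3 and 0.111% at day 7). At an unadjusted p under 0.05 there were 4, beside 11.1% over all genes, and DESeq2 called 0 of the 9 it gave an adjusted p for. Pdcd1lg2 was 0.35 higher on the log2 scale at day7CL than at day7C (SE 0.13, edgeR adjusted p = 0.378), and the beige nuclei alone gave -0.05 (edgeR adjusted p = 0.964). In white nuclei alone, Pdcd1lg2 was higher at day7CL than at day7C by 0.81 (SE 0.16, edgeR adjusted p = 0.0203), and it was 1 of 6 genes called among 13468 (0.0446%). Leaving out each of the 6 mice in turn gave 0.71 to 0.89, and the call was lost without day7C replicate 2 (edgeR adjusted p = 0.0701), day7C replicate 3 (0.349) or day7CL replicate 1 (0.133). In white nuclei CL and cold gave a difference of 0.14 at day 1 (edgeR adjusted p = 0.832, with 0.713% of genes called) and 0.29 at day 3 (0.288, with 1.91% called). The other 3 tests with unadjusted p under 0.05 were Cd80 at day 7 (0.60, SE 0.27), Cd86 at day 7 (0.86, SE 0.42) and Cd86 at day 3 (-0.78, SE 0.37), with edgeR adjusted p of 0.526, 0.568 and 0.355.

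The counts of Pdcd1lg2 come from 22 peaks, 19 of them within introns only. The matrix is sparse: the most frequent peak had entries in 210 of 7004 adipocyte nuclei (2.998%), and only 1 peak passed the filter on low counts. The peaks are therefore described by a rule with no test, which called a peak higher in a group where all 3 of its mice lay above all 3 day0RT mice and the log2 fold change was over 1. By this rule 27 of 132 pairs of peak and group (20.5%) were higher, beside 3.58% (day1C), 6.64% (day3C), 6.56% (day7C), 1.63% (day1CL), 7.27% (day3CL) and 7.55% (day7CL) of all peaks. Nothing is read from that excess, since the sum of these peaks chose the gene. With white nuclei alone there were 21, beside 2.99%, 6.55%, 4.49%, 1.05%, 7.09% and 6.2% of all peaks in the same order. Pooled over mice, 20 peaks were higher in treated than in day0RT adipocytes and 2 were lower. Of the 22 peaks 7 had no entry at day 0. The share of all peaks that were higher was not counted. Nothing is read from this count either, since the same sum chose the gene. The rule called 3 peaks in 4 or more groups, 9 in 1 to 3 groups and 10 in none.

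The 3 peaks called most often were centred 9.2, 37.6 and 59.9 kb downstream of the gene start. The intronic peak at 9.2 kb (chr19:29419941-29420328) had 0, 0 and 2 entries in the day0RT mice, and 136 in treated mice. It was higher in all cold groups and in day1CL and day7CL, with 7.34 ± 1.73 peak CPM (entries per 1000000 peak counts; SD, n = 3) at day7C and 0.61 ± 1.06 at day 0. The day1CL call rests on 1, 1 and 15 entries, in mice with 29, 68 and 654 adipocyte nuclei. In beige nuclei the peak reached 11.2 CPM, against 3.57 in white nuclei, 1.78 to 2.91 in lymphocytes and 18.2 in macrophages.

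The intronic peak at 37.6 kb (chr19:29448151-29448886) had 1 entry at day 0 and 110 in treated mice, and was higher in day3C, day7C, day3CL and day7CL. Its values were 0, 0 and 0.913 CPM in the day0RT mice and 3.11, 6.46 and 4.74 in the day7CL mice. It was about as open in white (3.82 CPM) as in beige nuclei (3.95), and its highest value was in dendritic cells (24.3). The peak at 59.9 kb (chr19:29470470-29471137) lies over the annotated 3' untranslated end of the gene and also overlaps A930007I19Rik. It had 5 entries at day 0 and 205 in treated mice, and was higher in the same 4 groups, with 12.2, 9.37 and 7.47 CPM in the day3CL mice and 3.32, 0 and 2.74 in the day0RT mice. It was at 14.3 CPM in beige and 5.95 in white nuclei. VEC (29.3) and APC2 (18.2) were higher, and dendritic cells were at 10.6.

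The peak at 51.7 kb (chr19:29462546-29462776) had no entry in 637 day0RT adipocyte nuclei, which allows a share of up to 0.471%, and 59 entries in treated mice. It was higher in day1C, day7C and day7CL. Its pooled treated value, 2.20 CPM, was 1.51 times the 1.46 CPM that 3 entries would give over the day 0 nuclei. In all 7 peaks had no entry at day 0, and only the peaks at 51.7 and 2.0 kb had a treated value above that floor. The peak at 2.0 kb, annotated as both promoter and intron, had 44 treated entries (1.64 pooled CPM) and was higher in day3C and day7C. The promoter peak nearest the start (chr19:29410635-29410910, centred at -0.1 kb) was among the other peaks with no day 0 entry. Its 17 treated entries gave 0.633 CPM, below the floor. The rule still called it in day3CL, on 1, 2 and 1 entries in the 3 mice. It was at 13.7 CPM in dendritic cells and 5.06 in macrophages, and at most 0.792 in B and T cells. These limits cover counting error only, and not the spread between mice. The sum of these peaks chose the gene, so nothing is read from the limits.

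The 3 peaks that were most open in lymphocytes were among the 10 of 22 called in no treated group of adipocytes, so this is not particular to them. The peak at 7.6 kb had 13 day 0 and 158 treated entries (log2 fold change -0.04) and was open in every immune cluster, at 30.9 to 44.8 CPM. At 43.4 kb, over a coding exon, T cell clusters reached 49.8 to 68.0 CPM and adipocytes had 3 and 53 entries (0.37). The peak at 20.2 kb was at 53.7 CPM in B cells, 43.5 in macrophages and 41.8 in dendritic cells. In adipocytes it had 2 and 63 entries (1.29). The peak at 33.6 kb had the lowest value, with 7 and 37 entries and a log2 fold change of -1.21.

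The central 200 bases of 4 of these peaks are shown, from GRCm38 (mm10), plus strand, to let the promoter be compared with the intronic peaks that were higher in treated adipocytes. Capitals mark matches on either strand to the motifs named after the sequences.

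Promoter peak at -0.1 kb, chr19:29410673-29410872: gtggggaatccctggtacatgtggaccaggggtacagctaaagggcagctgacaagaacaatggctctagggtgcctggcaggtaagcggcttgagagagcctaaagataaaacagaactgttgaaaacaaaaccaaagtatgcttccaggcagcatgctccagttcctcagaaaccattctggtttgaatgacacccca
Intron peak at 9.2 kb, chr19:29420035-29420234: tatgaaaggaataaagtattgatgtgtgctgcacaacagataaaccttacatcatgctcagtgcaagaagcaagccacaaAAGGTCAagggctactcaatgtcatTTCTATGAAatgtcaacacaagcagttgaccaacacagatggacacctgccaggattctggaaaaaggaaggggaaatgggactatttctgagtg
Intron peak at 37.6 kb, chr19:29448419-29448618: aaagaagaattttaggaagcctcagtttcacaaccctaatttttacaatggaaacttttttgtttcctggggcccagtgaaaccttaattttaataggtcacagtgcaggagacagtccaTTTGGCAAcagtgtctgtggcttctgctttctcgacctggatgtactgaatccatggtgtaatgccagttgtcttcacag
Intron peak at 51.7 kb, chr19:29462562-29462761: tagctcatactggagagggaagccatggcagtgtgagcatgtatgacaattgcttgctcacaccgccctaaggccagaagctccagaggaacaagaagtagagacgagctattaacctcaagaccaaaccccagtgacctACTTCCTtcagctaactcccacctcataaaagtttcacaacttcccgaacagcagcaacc

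In each peak's central 200 bases 11 short motifs were searched on both strands. The window at 9.2 kb held AAGGTCA, a nuclear receptor element with its 5' extension found in 5.06% of 189597 windows of all peaks, and TTCNNNGAA, a STAT motif (7.54%). The window at 37.6 kb held a match to TTGCNNAA, of the C/EBP type (13.9%), and the window at 51.7 kb held AGGAAGT, of the ETS type (10.9%). None of the motifs was in the promoter window. Over the 22 Pdcd1lg2 windows, TTGCNNAA was in 4, AGGAAGT in 3, TTCNNNGAA in 2, and AAGGTCA, CCCNNGGG (EBF, 8.08% of all windows) and the NF-kB motif (2.47%) in 1 each. No window held the nuclear receptor direct repeat with a spacer of 1 base (0.542%), TGACGNCA (CRE, 0.948%), TGANTCA (AP-1, 9.11%), the IRF motif (3.60%) or ACANNNTGT (glucocorticoid receptor, 7.53%). AAGGTCA and the direct repeat can share bases, but only the former was found. These are matches of letters and not sites of binding.

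**Figure D2:**
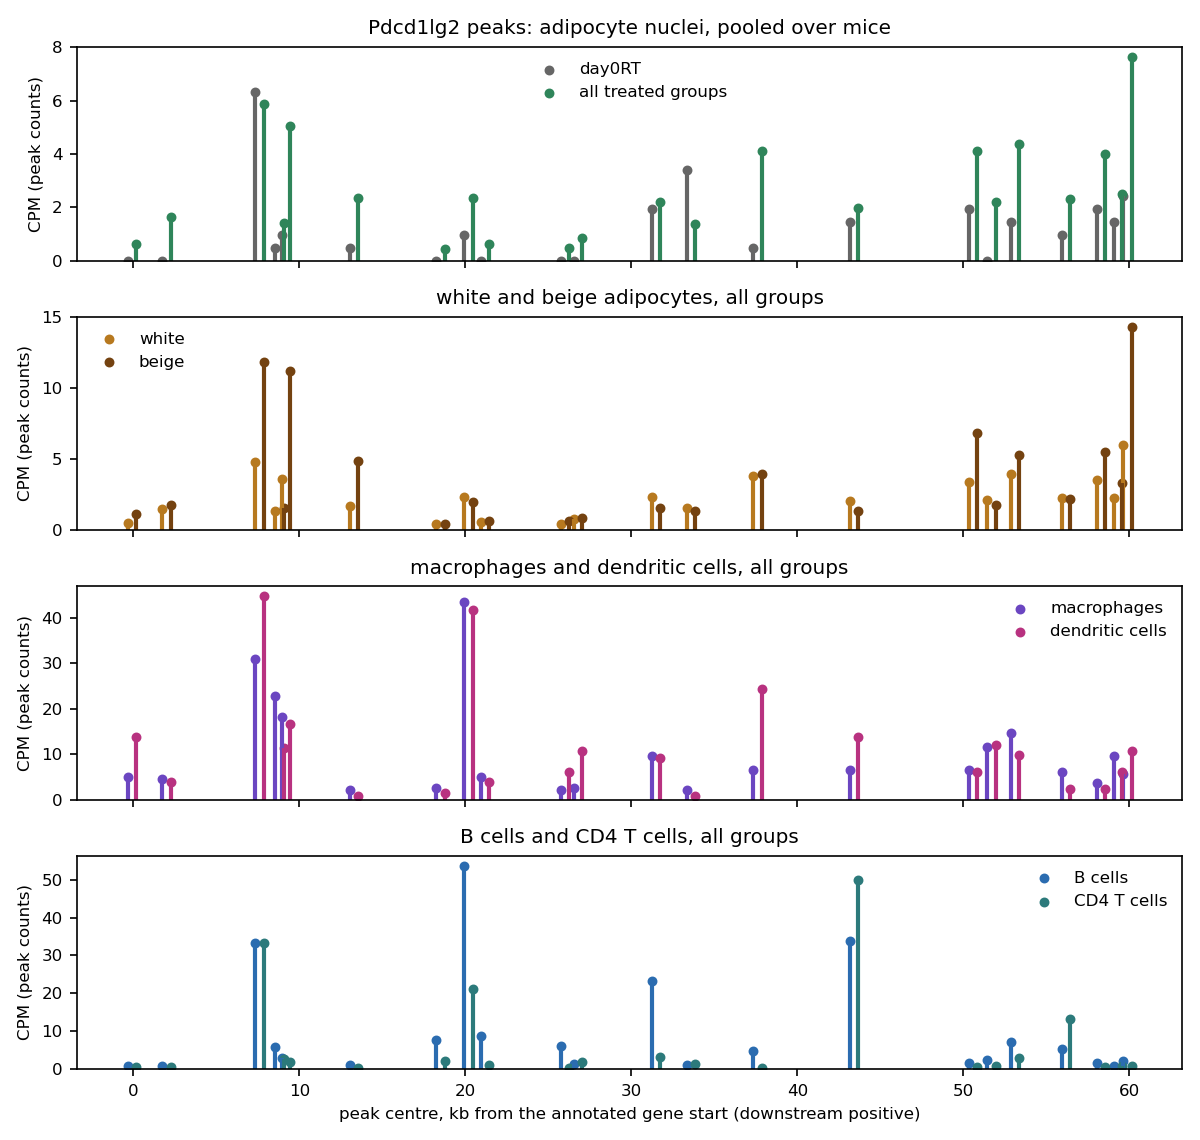
The 22 Pdcd1lg2 peaks by the distance of their centre from the gene start (x axis, kb) and their CPM of peak counts pooled over mice (y axis, a separate scale per panel), in adipocytes at day 0 and treated, and in white, beige, macrophage, dendritic, B and CD4 T cell nuclei. Treated adipocytes exceed day 0 at 20 of the peaks, whose sum chose the gene, and the share of all peaks was not counted. The peaks at 7.6, 20.2 and 43.4 kb that are most open in lymphocytes are among the 10 of 22 not called in any treated group.

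The genes around Pdcd1lg2 did not share its values. Of the 7 other protein-coding genes that start or lie within 250 kb, Rln1 held no peak, and the mean log2 fold change of the other 6 over the treated groups ranged from -0.17 (Ric1) to 0.17 (Insl6). Cd274, whose start lies 43.5 kb upstream of that of Pdcd1lg2, had 0.13 and Jak2 0.16. Between the 2 ligand genes, the peak at chr19:29390326-29391059, centred at -20.2 kb, went from 5.35 to 12 pooled CPM (log2 fold change 1.24). Beyond the end of Pdcd1lg2, peaks went in both directions. The peak at 73.8 kb went from 1.46 to 4.17 (1.47) and the peak at 71.9 kb from 15.6 to 9.46 (-0.7). These peaks are given as values, and the share of all peaks with such changes was not counted.

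Since PD-L2 is best known from immune cells, immune marker signal in adipocyte nuclei was measured beside it. Summed over 12 myeloid markers (Ptprc, Adgre1, Csf1r, Cx3cr1, Mrc1, Itgam, Spi1, Flt3, Zbtb46, Ciita, Itgax and Cd68), adipocytes had 550 to 638 CPM in day0RT mice, 575 to 713 in 5 treated groups and 652 to 924 in the day1CL mice. Cx3cr1 was the largest part, with means of 269 CPM at day 0 and 317 in treated mice. The sum had a mean of 2110 in macrophages, 1940 in B cells and 1370 in CD4 T cells, so it is not particular to myeloid cells. All mice of day1CL and day7CL (648 to 676) lay above the day0RT mice, as 8.17% and 11.7% of single genes did. The mean was higher in treated mice for 7 of the 12, and none of the 9 that were tested was called in edgeR. Adgre1 was at 0 in 2 mice and Itgax in 3. The sum over 9 lymphocyte markers (Cd3e, Cd3d, Cd4, Cd8a, Cd79a, Ms4a1, Pax5, Bcl11b and Cd2) was 162 to 240 CPM in day0RT mice. It was lower in all mice of day7C (114 to 141), day1CL (94.6 to 123) and day3CL (140 to 151), and overlapped day 0 in day1C, day3C and day7CL. Of single genes 11.3% (day7C), 8.61% (day1CL) and 11.4% (day3CL) lay below day 0 in all mice. The share for sums of genes was not counted. Pax5 was the largest part of the sum, with means of 102 CPM at day 0, 74.0 in treated mice and 99.2 in macrophages. The mean was higher in treated mice for 5 of the 9, and 4 were tested. Cd3e was at 0 in 5 mice and Cd8a in 4. Pax5 (-0.52, edgeR adjusted p = 0.0113) and Cd2 (-1.25, edgeR adjusted p = 0.00111) fell, beside 2.09% of genes called lower. Cd79a (1.03, edgeR adjusted p = 0.371) and Bcl11b (-0.46, edgeR adjusted p = 0.174) were not called.

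An entry at 1 or more of the 247 peaks of the myeloid and lymphocyte markers was present in 72.96% of adipocyte nuclei and 90.26% of B cell nuclei. In the adipocyte nuclei with none, Pdcd1lg2 was at 41.2 pooled CPM at day 0, from 9 counts, and at 50.5 to 78.9 in the treated groups, from 15 to 41 counts each. All 6 treated values lay above the day 0 value, with a log2 fold change of 0.69 (SE 0.47) in place of 1.13. These nuclei are part of those in which the gene was chosen, so this is a description and no separate support. The pooled values show no spread between mice, and the share of all genes with this pattern was not counted. The nuclei with no such entry were also shallower, so this choice selects on depth as well. Their median was 1300 counts per nucleus in day0RT replicate 3, against 2697 for all its adipocyte nuclei. In day7CL replicate 1 the medians were 2884 and 6685.5. The part of depth in this value was not tested. The part of the marker signal in the result was not tested further. More adipocytes with an open gene and more open chromatin per adipocyte cannot be told apart in these sums.

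Among the other members no change passed the test in adipocytes. Of the 8, Cd274, Cd80, Cd86, Cd28 and Icosl passed the filter, and none of their 30 tests against day 0 was called in edgeR, beside 3.69% of the tests over all genes (0.341% at day1C, 1.63% at day3C, 5.03% at day7C, 2.6% at day1CL, 4.78% at day3CL and 7.77% at day7CL). At an unadjusted p under 0.05 there were 2, beside 16.6% over all genes, and DESeq2 called 0 of the 6 it gave an adjusted p for. The log2 fold changes lay between -0.80 and 0.43.

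Cd274 (ENSMUSG00000016496, chr19:29367455-29388095), the PD-L1 gene, was already open in day 0 adipocytes, at 107, 109 and 94.0 CPM. The day7CL mice had 112, 136 and 150 CPM and all lay above the day0RT mice, a separation that 11.7% of all genes showed in that group. Its log2 fold change was 0.33 (SE 0.14, edgeR adjusted p = 0.153). In the other 5 treated groups Cd274 had means of 91.9 to 116 CPM and overlapped day 0. Its most open adipocyte peak, in an intron at 2.8 kb, had 24.7 ± 2.82 CPM at day 0 (SD, n = 3) and 20.4 ± 6.91 in treated mice (SD, n = 18), and was less open in B and CD4 T cells (3.48 and 4.02, pooled). A peak over a coding exon at 13.1 kb, which also overlaps AC119228.1, had 2 entries at day 0 and 82 in treated mice. It was higher by the rule in day1C, day3C and day7CL, beside 3.58%, 6.64% and 7.55% of all peaks. Of the 14 Cd274 peaks the only other one called was at 9.1 kb, in day3C and day7CL. The promoter peak, which lies at the shared start with Plgrkt, was at 11.5 ± 2.71 and 10.0 ± 4.51 CPM.

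Cd80 (chr16:38455561-38496335) had 20.5 to 28.2 CPM at day 0 and 12.7 to 19.6 at day7C. The day7C mice lay below the day 0 mice, as 11.3% of all genes did, with a log2 fold change of -0.69 (SE 0.33, edgeR adjusted p = 0.231). The day3CL mice, at 16.3 to 19.8 CPM, also lay below them, as did 11.4% of all genes. Cd86 (chr16:36603869-36666081) had 6.16 to 14.1 CPM at day 0 from 17 counts, and Cd28 (chr1:60716800-60773359) 8.12 to 21.2 CPM from 18 counts. Both overlapped day 0 in every treated group. Icosl (chr10:78069302-78083913), the ICOS ligand gene, was at 32.5 to 42.3 CPM at day 0 and overlapped it in all groups, with log2 fold changes of -0.18 to 0.10. Its adipocyte counts came mainly from the promoter peak, with 590 of 775.

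The T cell receptor genes were near the limit of the data in adipocytes. Pdcd1 (chr1:94038305-94052553) had 32 adipocyte counts over all mice, Icos (chr1:60977927-61000320) 40 and Ctla4 (chr1:60887000-60915832) 120, and none of them was tested. Pdcd1 and Icos had 2 counts and 1 count at day 0. Pdcd1 was at 2.49 to 3.73 CPM in the day1C mice, from 6 counts, above the 0 to 2.05 of the day0RT mice, a separation that 7.12% of all genes showed. Within mice, Icosl was lower in beige than in white nuclei in 14 of 19 mice, Pdcd1 in 15, Cd80 in 13, and Icos and Ctla4 in 11 each. Cd274 was higher in beige in 8 of 19, Cd28 in 10 and Cd86 in 11. Pdcd1 was at 0 in 16 of the 19 beige libraries and Icos in 15. The mean of Pdcd1 went the other way from its count of mice, at 2.21 CPM in beige and 1.78 in white nuclei. The share of all genes with such counts was not computed.

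**Figure D3:**
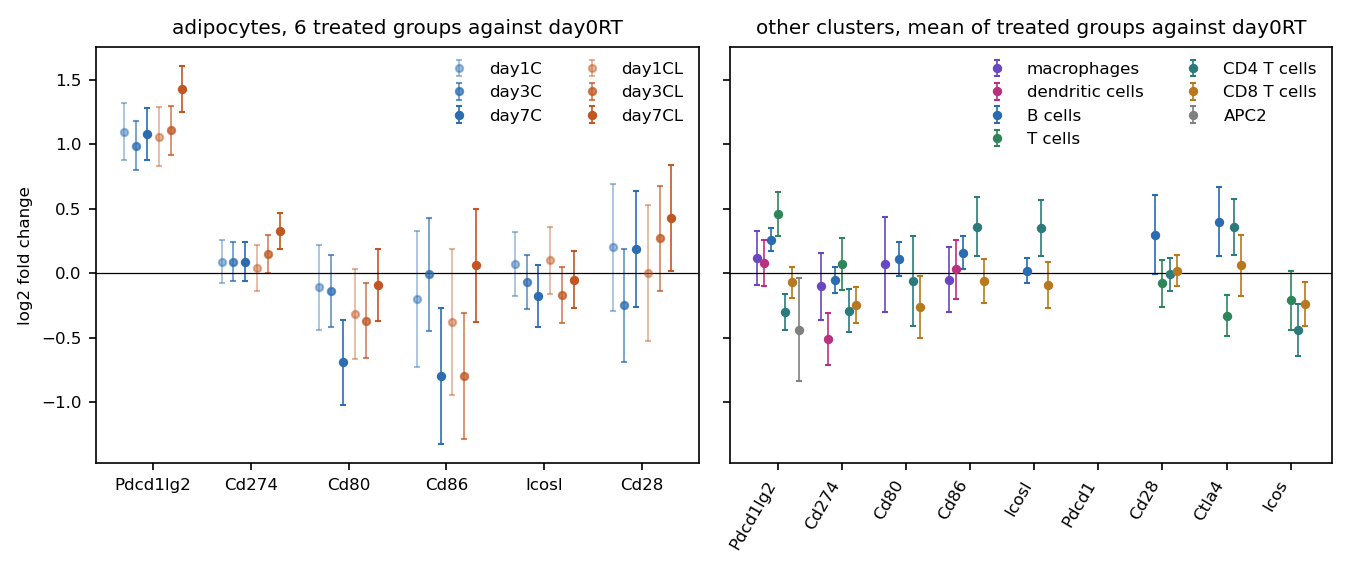
Log2 fold changes against day0RT (y axis) with their SE as bars, for members that passed the filter: each treated group in white plus beige adipocytes (left) and the mean of the treated groups in other clusters (right). Pdcd1lg2 in adipocytes lies between 0.99 and 1.43, and every other value lies between -0.80 and 0.46.

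Across clusters, the ligand genes were led by antigen-presenting cells and the receptor genes by T cell clusters. The levels are means over the mice with at least 10 nuclei in a cluster, 10 to 21 mice, and are a description. Pdcd1lg2 was at 304 ± 69.4 CPM (SD, n = 17) in dendritic cells and 278 ± 83.0 (SD, n = 21) in macrophages. B cells followed at 239 ± 32.8, the T cell cluster at 225 ± 66.0, VEC at 196 ± 122, CD8 T cells at 169 ± 37.9 and CD4 T cells at 154 ± 30.6. APC2, labelled as adipocyte progenitors, was at 115 ± 53.3, beige adipocytes at 103 ± 41.9, white adipocytes at 62.2 ± 17.6, APC1 progenitors at 51.1 ± 55.4 and the VSMC cluster at 46 ± 41.4. No neighbours in that order were further apart than their spread. White plus beige adipocytes of treated mice, at up to 91.7 CPM, stayed below every macrophage value (lowest 168 CPM), whereas beige nuclei alone reached 192 CPM in 1 day3C mouse.

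Cd274 was spread over the tissue, from 199 ± 75.4 CPM (SD, n = 17) in dendritic cells through 146 in macrophages, 145 in T cells, 121 in B cells, 116 in beige, 115 in CD4, 114 in VEC, 112 in CD8 and 111 ± 13.7 in white adipocytes. The first gap beyond the spread came next, to 72.1 ± 25.8 in APC2, followed by 65.8 in APC1 and 24.3 in the VSMC cluster. Cd80 was led by dendritic cells (133 ± 59.8), macrophages (84.1 ± 47.9) and B cells (76.1 ± 32.6), and white and beige adipocytes were lowest, at 21.7 and 18.4. Cd86 was at 175 ± 50.8 in dendritic cells and 155 ± 37.0 in macrophages, apart from B cells at 80.1 ± 13.9. The 4 lymphocyte clusters lay at 70.7 to 80.1, and adipocytes at 9.10 and 12.5. Icosl was led by B cells (131 ± 18.1), whose promoter peak was at 82.2 peak CPM, with dendritic cells at 120 ± 62.8, APC2 at 102 ± 42.6 and APC1 at 81.2 ± 37.5. Both clusters labelled APC also opened an intronic Icosl peak at 10.9 kb, at 33.7 (APC2) and 26.6 (APC1) peak CPM, which was at 3.04 in white adipocytes and 0 in VEC.

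The receptor genes followed the T cell clusters. Cd28 was highest in CD4 T cells (230 ± 32.0 CPM), apart from CD8 T cells (175 ± 31.0), with the T cell cluster at 166 ± 48.6 apart from VEC at 61.1 ± 50.9. The T cell clusters opened Cd28 at 29.3 kb (50.4 to 69.2 peak CPM), whereas VEC opened the upstream peak at -0.9 kb (34.2 peak CPM, against 2.01 in CD4 T cells). Ctla4 was at 193 ± 64.2 in the T cell cluster, apart from CD4 T cells at 87.8 ± 51.4. Icos was at 97.7 ± 27 in the T cell cluster, 81.4 ± 22.0 in CD8 and 76.2 ± 25.0 in CD4 T cells, apart from dendritic cells at 26.2 ± 30.1. Pdcd1 was sparse, with 328 counts over all nuclei, and led by the T cell cluster (37.1 ± 32.0), where 1 of 20 mice was at 0. Over the means of the 12 clusters, the gene most like Cd28 by Pearson correlation was Camk4 (r = 0.98), for Cd86 Pstpip1 (0.98), for Icos Cd3e (0.96), for Cd274 3110001I22Rik (0.95), for Cd80 Dact3 (0.95), for Ctla4 Tmem30a (0.94), for Pdcd1 Ctla4 (0.93) and for Icosl Rassf2 (0.91). The points share their mice and depth.

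**Figure D4:**
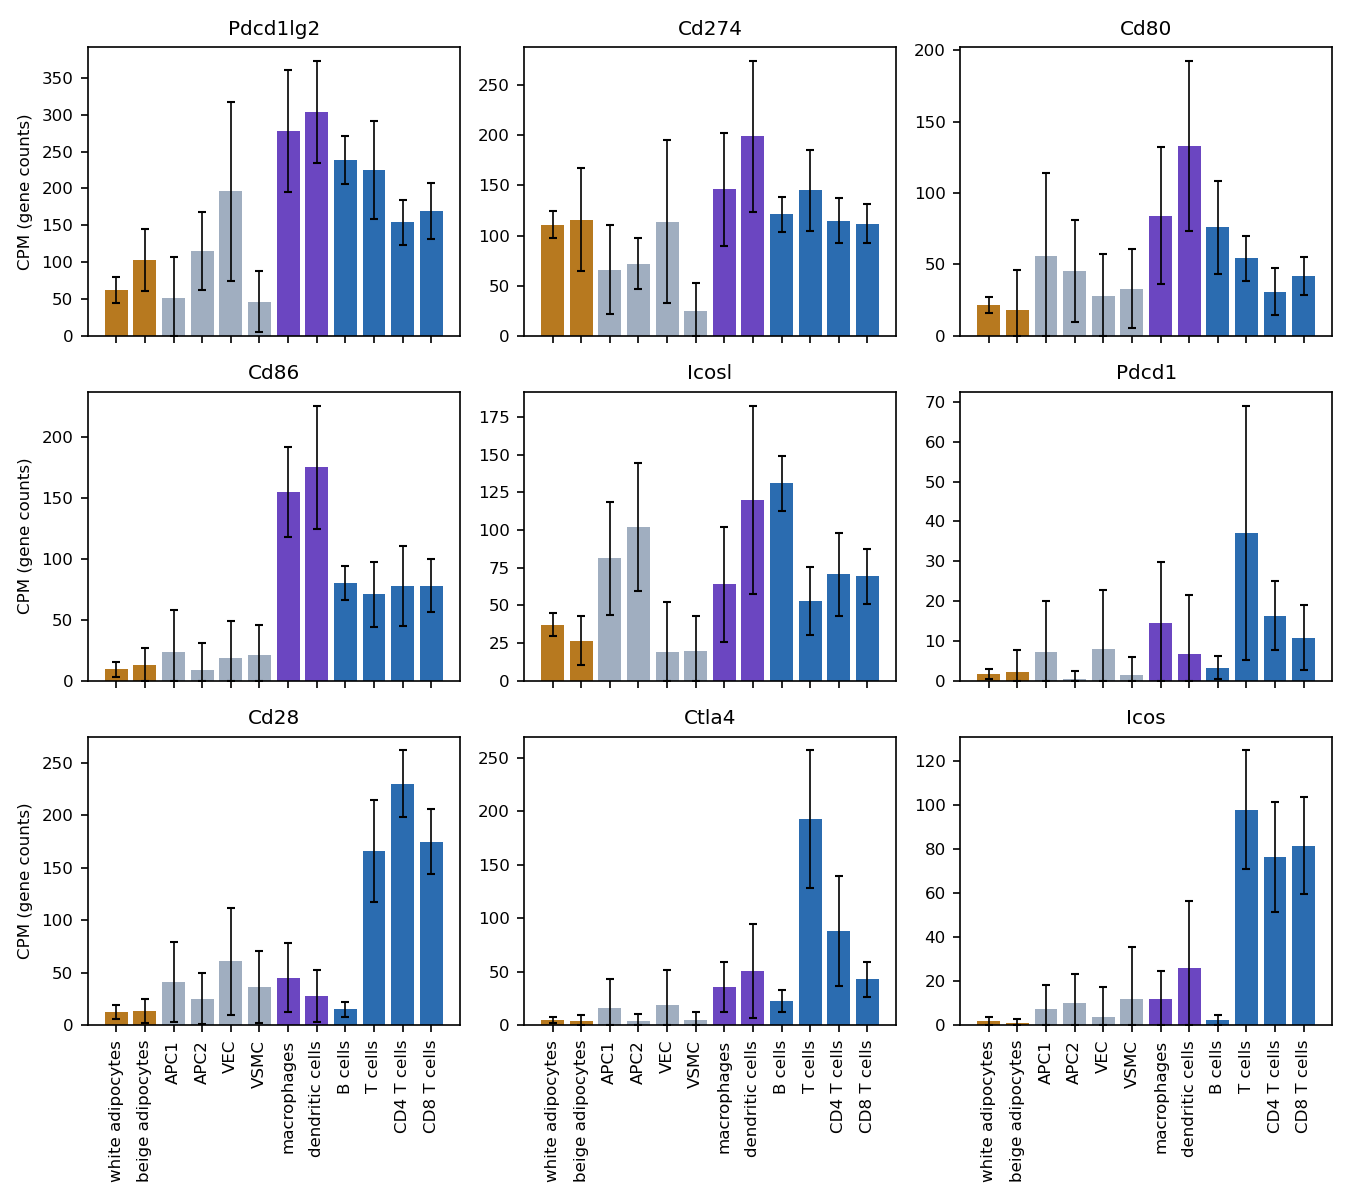
Mean CPM of gene counts (bars; y axis, a separate scale per gene, starting at 0) of the 9 members in the 12 clusters (x axis), with the SD over mice with at least 10 nuclei, lower bars cut at 0. Ligand genes are led by dendritic cells, macrophages or B cells, and Cd28, Ctla4, Icos and Pdcd1 by T cell clusters.

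In clusters other than adipocytes, no member was called between treated and day0RT mice. There were 36 tests of 8 members in 7 clusters, 0 called in edgeR, beside 0.213% of the tests over all genes in 8 clusters. That share was 0.743% in B cells, 0.0691% in APC1, 0.058% in CD8, 0.0417% in CD4, 0.0576% in dendritic cells, 0.0172% in the T cell cluster and 0 in APC2 and macrophages. At an unadjusted p under 0.05 there were 6, beside 9.16% over all genes, and DESeq2 called 0 of the 30 it gave an adjusted p for. Pdcd1lg2 in B cells was at 201 ± 5.00 CPM (SD, n = 3) at day 0 and 245 ± 31.3 (SD, n = 18) in treated mice, whose range of 203 to 307 reached into that of day 0 (196 to 206), with a log2 fold change of 0.26 (SE 0.09, edgeR adjusted p = 0.135). In the T cell cluster it was 0.46 (SE 0.17, edgeR adjusted p = 0.519) and in CD4 T cells -0.30 (SE 0.14, edgeR adjusted p = 0.547). Macrophages and dendritic cells, in which the gene was most open, had 0.12 (SE 0.21) and 0.08 (SE 0.18), with edgeR adjusted p of 0.985 and 0.941.

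The remaining 3 at an unadjusted p under 0.05 were Cd274 in dendritic cells (243 ± 73.2 against 190 ± 75.1 CPM, log2 fold change -0.51), Icos in CD4 T cells (89.3 ± 18.3 against 73.9 ± 25.8, -0.44) and Ctla4 in the T cell cluster (245 ± 59.0 against 184 ± 62.0, -0.33), with edgeR adjusted p of 0.440, 0.504 and 0.691. The ranges overlapped in each. Of 22 peaks of 7 members that passed the filter in some cluster, 84 tests gave 0 calls in edgeR, 2 at an unadjusted p under 0.05 and a lowest adjusted p of 0.398, and DESeq2 was not run on peaks. Over all tested adipocyte peaks the called share was 0.211% at day1C, 1.25% at day3C, 3.1% at day7C, 2.02% at day1CL, 3.41% at day3CL, 4.13% at day7CL and 2.64% for the mean of the treated groups. Between CL and cold it was 0.456% at day 1, 1.74% at day 3 and 0.023% at day 7, and it was 0.0555% in B cells, 0.0139% in CD8 T cells and 0 in the other T cell clusters.

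Other genes of the pathway were counted in 2 lists. Of 26 further checkpoint and costimulatory genes 15 were tested in adipocytes, and over the 6 groups none was higher and 8 of 90 tests were lower, beside 1.57% of the tests over all genes, with a median log2 fold change of -0.03 for the mean of the treated groups, beside -0.01 over all genes. In that mean 2 of 15 were called, beside 4.16% of all genes (2.09% lower). The calls were Tnfrsf14, which encodes HVEM, in 5 groups and Vsir, which encodes VISTA, in 3. Tnfrsf14 fell from 61.1 ± 22.7 CPM (SD, n = 3) to 34.9 ± 8.68 (SD, n = 18), a log2 fold change of -0.93 (SE 0.18, edgeR adjusted p = 4.2e-04), and 10 of 18 treated mice lay below all day 0 mice. Vsir fell from 201 ± 33.5 to 146 ± 24.0 CPM (-0.46, SE 0.10, edgeR adjusted p = 0.00389), with 13 of 18 mice below. Both calls rest on 1 library: without day0RT replicate 3 they were -0.59 (edgeR adjusted p = 0.285) and -0.34 (0.237), and the list had 0 calls.

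Of 14 genes that signal next to the T cell receptor 12 were tested, and 1 of 72 tests was called, beside 3.69% of the tests over all genes. Pik3r1, a regulatory subunit of PI3-kinase, was higher at day3C (694 ± 132 against 489 ± 48.3 CPM, log2 fold change 0.48, SE 0.12, edgeR adjusted p = 0.0204), beside 0.855% of genes called higher. The call was lost without day0RT replicate 1 (0.40, edgeR adjusted p = 0.146), day0RT replicate 3 (0.52, 0.0768), day3C replicate 2 (0.44, 0.0768) or day3C replicate 3 (0.35, 0.155), and beige nuclei alone gave -0.25. No gene of either list was called in another cluster in edgeR.

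Over the adipocyte sums of the 21 mice, the genes whose log2 CPM followed Pdcd1lg2 most closely were Opcml (r = 0.85), Virma (0.84), Bckdk (0.82), Gpc5 (0.82) and Aig1 (0.81). Among the 18 treated mice alone r fell to between 0.39 and 0.70, and the mice share the step from day 0.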

How the data were processed

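Nuclei of iWAT from 21 mice were profiled by combinatorial-indexing single-nucleus ATAC-seq and sequenced in 4 lanes that pool all mice, so the mouse, group and cluster of each nucleus were read from the deposited metadata. The authors aligned reads to mm10 with Bowtie2, sorted them with SAMtools, removed duplicates within each barcode with Picard, called peaks per cluster with MACS2, removed doublets with Scrublet and processed the matrix with Signac. The deposited counts are a binary matrix of 65588856 entries of 1 and 145 stored zeros, which cannot tell 1 read from several. Of 28031 distinct barcodes, 4218 occur in more than 1 mouse, at most in 3, and 21.5% of such pairs share a cluster, beside 20.7% given by the cluster sizes.

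Entries were summed per mouse and cluster, leaving out sums of fewer than 10 nuclei, and per protein-coding gene of GENCODE vM21 over its body and 2 kb upstream. Genes and peaks were tested with edgeR 4.0.16 in R 4.3.3 (quasi-likelihood, TMM, filterByExpr with a minimum count of 10 and a minimum total of 15, all groups in 1 fit, two-sided, Benjamini-Hochberg over all genes or peaks of a comparison, adjusted p under 0.05). VEC and the VSMC cluster, with 1 and 0 day 0 libraries, were not tested. Peaks that did not pass the filter were compared by value, with a prior count of 2 in their log2 fold change. DESeq2 1.42.0 was the other tool. Sums and plots used Python 3.11.15, numpy 2.4.6, pandas 2.3.3, scipy 1.17.1 and matplotlib 3.10.9, and limma was at 3.58.1. The fit was tested on simulated data.

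The members and lists were chosen with earlier results of these data known. Genes named outside them are markers, neighbours within 250 kb, list genes past the threshold and, by Pearson correlation, the 5 genes most like Pdcd1lg2 and the closest gene to each other member. Alternatives were DESeq2, no filter, peaks within 2 kb of the gene start, white nuclei only, nuclei without immune marker entries, cold or CL groups only, at least 30 nuclei per sum, the replicate number as a block and leaving out each mouse. Beige nuclei only, library totals without TMM and mice with at least 100 adipocyte nuclei were added after the data were seen. Mice of the same replicate number were not treated as pairs, since they were not more alike by correlation than others. That check on sparse sums cannot exclude a shared batch. The study reports batches that were run independently, and replicate numbers were not matched to them. The mice of a group are separate animals. One further lymphocyte marker is not reported here.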

Additional observations from a re-analysis of the deposited data

Results flagged for a closer look

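In white adipocyte nuclei, Pdcd1lg2 was higher after 7 days of CL than after 7 days of cold by 0.81 on the log2 scale (SE 0.16, edgeR adjusted p = 0.0203), where the test of the difference itself passed. The call was lost when day7C replicate 2, day7C replicate 3 or day7CL replicate 1 was left out, and in white plus beige nuclei the difference was 0.35 (edgeR adjusted p = 0.378).

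In the cluster labelled VSMC, which had 10 mice with enough nuclei, 1 mouse stood apart from the others for each of 2 members among 9, not the same mouse. Cd274 was at 90.4 CPM in day1CL replicate 3, from 1 count in 14 nuclei. Pdcd1 was at 14.4 CPM in day3CL replicate 3, also from 1 count. Pdcd1 was at 0 in 9 of the 10 libraries and Cd274 in 4, so a single count can stand apart and no rate of chance is given.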

How the results depend on the processing

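The log2 fold change of Pdcd1lg2 over the treated groups, 1.13, stayed within the spread between mice under most alternatives. It was 1.55 in beige nuclei alone and 0.69 in nuclei without immune marker entries, where the filter was dropped because the gene did not pass it, and white nuclei alone gave 0.77 at day3C and 0.55 at day7C. With peaks within 2 kb of the gene start the gene had no day 0 entry and gave no value. Leaving out each mouse gave 1.02 to 1.18. With the replicate number as a block it was 1.12, and the block changed no call of a member. Mice of the same number had a correlation r of -0.12 to 0.12, and 9 of 21 libraries were closest to their own number. White nuclei alone gave 1 member called between CL and cold, Pdcd1lg2 at day 7. In white nuclei it was also called with the replicate block (edgeR adjusted p = 0.0295) and in 3 of 6 fits leaving out 1 mouse. Every alternative not on white nuclei alone gave 0, leaving out each mouse in white plus beige nuclei included. The calls of the other members against day 0 and in other clusters stayed at 0. The checkpoint list went from 8 calls to 2 in DESeq2, 0 in beige nuclei, 0 in nuclei without immune marker entries with or without the filter, 5 with peaks near the start and 0 to 12 without 1 mouse. The T cell receptor list went from 1 call to 0 in DESeq2, in beige nuclei and in nuclei without immune marker entries with or without the filter, and to 0 to 2 without 1 mouse. Pik3r1 at day3C was -0.25 in beige nuclei. The cause of these shifts was not tested. At least 30 nuclei per sum could not be run for APC1, and leaving out each mouse was run in adipocytes, macrophages, dendritic cells and CD4 T cells only. Depth limits the data most at single Pdcd1lg2 peaks, where the day 0 adipocytes hold 0 to 13 entries each, and in Pdcd1, Icos and Ctla4.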
